A study of Mus musculus with 6 samples.

Results

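Nuclear copies of mitochondrial genes are stretches of mitochondrial DNA (mtDNA) that were inserted into the chromosomes of the nucleus. Described here are 10 such copies, each annotated as a pseudogene, of 38739 genes in the table. They are Gm28661, Gm29216, Gm28437, Gm28438, Gm28439, Gm10222, Gm13339, Gm13340, Gm11408 and Gm11410. They were taken by symbol, after being chosen by their high values in these 6 samples and the difference of those values between lipopolysaccharide (LPS) and untreated samples. Their change with LPS is therefore a description and was not tested. All 10 had a value above 0 in each of the 6 samples.

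The mitochondrial genome of the mouse encodes 13 proteins, all of them subunits of respiratory chain complexes or of ATP synthase, and nuclear genes supply the rest of these machines and the apparatus that transcribes mtDNA. Both strands of mtDNA are transcribed as long precursors, which are cut at the transfer RNAs that lie between the genes, and most of the messenger RNAs then receive short poly(A) tails. Nuclear copies keep the sequence of the genes they came from for as long as mutations have not changed it, and a recent copy can be identical to mtDNA over long stretches. A sequencing read from an identical stretch is the same whether the RNA came from the mitochondrion or from the nuclear copy.

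The samples were neutrophils washed from the peritoneum of cGAS knockout mice, strain C57B/L6 in the spelling of the labels, after an injection of thioglycolate that draws these cells there. The study used male mice 8 weeks old. All samples, the controls too, lack cGAS, the sensor of DNA in the cytoplasm, and no wild-type sample was analysed here. The untreated group is 3 samples kept for 2 h in medium alone, and the LPS group is 3 samples given 500 ng/mL of LPS from E. coli 026:B6 for 2 h by their labels, although the study's own methods give another dose for RNA sequencing. Nothing states whether the samples of a group came from separate animals, so the spread between them may be partly technical. Levels are in scaled TPM, the usual transcript abundance per length (TPM) divided by 1 factor for each sample. Each value has the form of a mean across the transcripts of a gene. Levels can be compared between the copies, each with 1 transcript in the annotation used here. Genes with several transcripts stand too low beside them, and a share of the summed values is not a share of RNA. Depth is not known from such values, and neither a counting error nor a detection floor can be given.

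The matched rows came from chromosomes 1 to 13, with 1 row from X and 0 from chromosomes 14 to 19, and genes elsewhere were not analysed here. Chromosome M holds 37 annotated genes, and 0 of them has a row in the table, so that the levels of the mitochondrial genes themselves were not analysed here. The summed values of the table were 603599 to 713384 in untreated samples and 404675 to 465904 in LPS samples. A single row, the ferritin pseudogene Fth-ps3, took 25.4% to 32.6% of that sum in untreated samples and 11.5% to 14.6% after LPS. Cgas, the deleted gene, stood at 0.180 to 0.307 scaled TPM in untreated samples and at 0.0286 to 0.184 after LPS. Of 12 neutrophil markers 10 had a row and all 10 were above 0 in every sample, led by S100a9 at 5233 to 28393. The samples numbered 2 stand apart from the others in both groups, as set out beside the results.

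The 10 copies lie in 3 insertions. On chromosome 1 of GRCm39, 6 of them sit side by side on the minus strand between 24650616 and 24655278, a stretch of 4663 bases. Across 4654 aligned bases it was 99.936% identical to positions 6390 to 11042 of mtDNA, with 2 mismatches and 1 gap base. On chromosome 2, Gm13339 and Gm13340 lie in a stretch of 3243 bases (chr2:22477303-22480545) that was 97.359% identical. The most diverged insertion, on chromosome 4 (chr4:79920568-79923368, 2801 bases), holds Gm11408 and Gm11410 and was 92.931% identical. Each annotated copy is 1 exon, each is read in the same direction as the gene it copies, and none encodes a protein in the annotation.

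The sequences below are shown because they set how far a read can tell a copy from mtDNA and from the other copies. Each line runs 5′ to 3′ along the copied gene, and capitals mark bases that differ from mtDNA. The first set is a window of mt-Co2, which encodes subunit 2 of cytochrome c oxidase, at chrM:7490-7589. Gm28661 (chr1:24654070-24654169, minus strand) had 0 differences in it, and Gm13341 (chr2:22477410-22477509, minus strand), a further copy, had 4.
mt-Co2: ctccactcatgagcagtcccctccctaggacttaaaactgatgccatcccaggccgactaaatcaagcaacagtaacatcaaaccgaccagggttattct
Gm28661: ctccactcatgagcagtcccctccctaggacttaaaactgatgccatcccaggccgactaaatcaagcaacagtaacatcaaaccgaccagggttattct
Gm13341: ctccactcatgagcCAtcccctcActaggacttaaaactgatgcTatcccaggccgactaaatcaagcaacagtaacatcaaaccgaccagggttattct

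The window of mt-Co1, the catalytic subunit of the same oxidase, lies at chrM:6407-6506 and is held by 3 rows of the table. Gm29216 (chr1:24655153-24655252, minus strand) had 0 differences, Gm13340 (chr2:22478481-22478580, minus strand) had 2 and Gm11512 (chr11:90429673-90429772, minus strand) had 13.
mt-Co1: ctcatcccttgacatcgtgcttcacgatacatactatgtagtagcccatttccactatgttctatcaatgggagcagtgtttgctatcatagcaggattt
Gm29216: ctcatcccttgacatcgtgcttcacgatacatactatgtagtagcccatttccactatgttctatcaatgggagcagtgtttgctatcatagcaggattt
Gm13340: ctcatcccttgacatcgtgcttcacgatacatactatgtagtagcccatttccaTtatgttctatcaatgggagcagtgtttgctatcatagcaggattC
Gm11512: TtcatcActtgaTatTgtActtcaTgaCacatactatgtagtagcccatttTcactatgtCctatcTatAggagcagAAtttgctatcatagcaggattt

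Gm28438 carries 1 of the 2 mismatches of the chromosome 1 insertion. Written as the mtDNA base, its position on chromosome M and the base of the copy, it is T9461C, and the other is A6393T in Gm29216. The first 41 bases of the copy of mt-Nd3, a membrane subunit of complex I, are chrM:9459-9499 and chr1:24652160-24652200 (minus strand).
mt-Nd3: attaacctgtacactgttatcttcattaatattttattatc
Gm28438: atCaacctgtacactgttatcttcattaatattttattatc

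On chromosome 4 differences are spread along the copies. The window of mt-Cytb, which encodes cytochrome b of complex III, is chrM:14189-14288 and chr4:79922270-79922369 (plus strand), with 7 differences in Gm11410. That of mt-Nd6, a complex I subunit read from the other strand of mtDNA than the rest, is chrM:13569-13668 and chr4:79921650-79921749 (minus strand on both), with 6 differences in Gm11408.
mt-Cytb: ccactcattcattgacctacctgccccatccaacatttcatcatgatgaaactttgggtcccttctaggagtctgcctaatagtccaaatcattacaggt
Gm11410: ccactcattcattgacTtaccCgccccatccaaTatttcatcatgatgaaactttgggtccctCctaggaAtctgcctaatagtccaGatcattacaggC
mt-Nd6: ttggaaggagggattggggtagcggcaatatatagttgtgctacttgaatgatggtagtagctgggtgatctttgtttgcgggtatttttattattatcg
Gm11408: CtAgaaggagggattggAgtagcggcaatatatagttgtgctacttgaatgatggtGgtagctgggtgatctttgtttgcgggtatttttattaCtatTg

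Counted as words of 31 bases, the share of each copy that also occurs in mtDNA ran from all of it to almost none. Gm28661 (651 words), Gm28437 (753), Gm28439 (846) and Gm10222 (264) shared every word with mtDNA. Gm28438 shared 312 of 315 and Gm29216 shared 449 of 462. The chromosome 2 copies were intermediate, with 685 of 1515 words (45.21%) for Gm13340 and 136 of 480 (28.33%) for Gm13339. On chromosome 4, 36 of 489 words (7.36%) of Gm11408 and 73 of 1113 (6.56%) of Gm11410 occurred in mtDNA. No word was particular to Gm28661, Gm28437, Gm28439, Gm10222 or Gm28438, whereas 13 words of Gm29216, 751 of Gm13340, 344 of Gm13339, 453 of Gm11408 and 1040 of Gm11410 occurred neither in mtDNA nor in any other annotated transcript. For the 4 identical copies, RNA of the nuclear copy and RNA of the mitochondrion cannot be told apart, and all levels below are those the deposited table credits to the copy. An overlapping long non-coding RNA, Gm71269, holds all 315 words of Gm28438 and has no row of its own in the table.

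Among the 10, copies of the cytochrome c oxidase genes on chromosome 1 had the highest mean levels. Gm28661, the mt-Co2 copy (chr1:24653966-24654646, 681 bases), stood at 16001, 6273 and 13652 scaled TPM in untreated samples 1, 2 and 3 and at 5942, 2420 and 7159 in LPS samples 1, 2 and 3. Sample 2 was the lowest in each group, and untreated sample 2 lay below LPS sample 3, so that the groups overlap. The log2 fold change of LPS against untreated was -1.24 (SE 0.57, limma, n = 3 and 3), and the group means were 11975 ± 5077 untreated and 5174 ± 2461 after LPS (SD).

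Gm29216 covers the last 31.26% of mt-Co1 (chr1:24654787-24655278, 492 bases), and its values were 12209, 4321 and 10717 untreated and 4880, 2437 and 5314 after LPS. Gm13340, the whole of mt-Co1 on chromosome 2 (chr2:22478115-22479659, 1545 bases, 37 mismatches), had 6015, 1938 and 4769 untreated and 2452, 956 and 2630 after LPS. As for Gm28661, both had untreated samples 1 and 3 on top, LPS sample 2 at the bottom and untreated sample 2 inside the range of the LPS group. Untreated sample 2 lay below LPS sample 1 in both, whereas for Gm28661 it lay above. The log2 fold changes were -1.05 (SE 0.54) for Gm29216 and -1.06 (SE 0.61) for Gm13340. The ratio of the first to the second kept to a narrow band, 1.99 to 2.55 over the 6 samples.

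Gm28437 copies mt-Co3, the third oxidase subunit made in mitochondria (chr1:24652270-24653052, 783 bases, identical). It stood at 7718, 2857 and 6775 untreated and at 2727, 1114 and 3973 after LPS. LPS samples 1 and 2 lay below the whole untreated group and LPS sample 3 did not. The log2 fold change was -1.21 (SE 0.62).

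Among the complex I copies, Gm28439 and Gm13339 had the lowest fold changes. Gm28439 is the first 63.57% of mt-Nd4 (chr1:24650616-24651491, 876 bases, identical), a proton-pumping subunit, and had 5805, 1935 and 5661 scaled TPM untreated and 2034, 688 and 2605 after LPS. Gm13339 is 49.13% of mt-Nd2 (chr2:22480036-22480545, 510 bases, 17 mismatches), with 6450, 1302 and 5503 untreated and 1766, 467 and 3145 after LPS. In both, the untreated sample numbered 2 was lower than LPS samples 1 and 3. The log2 fold changes were -1.37 (SE 0.68) and -1.38 (SE 0.92).

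Gm10222 copies mt-Nd4l, the smallest of the mitochondrial complex I genes here (chr1:24651488-24651781, 294 bases, identical). Its values were 3088, 1043 and 5115 untreated and 1443, 433 and 2086 after LPS, and here untreated sample 3 rather than 1 was the highest. The log2 fold change was -1.22 (SE 0.82), and only untreated sample 2 lay inside the range of the LPS group.

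Gm11408, the mt-Nd6 copy (chr4:79921633-79922151, 519 bases, 33 mismatches), stood at 3168, 880 and 1504 untreated and at 1213, 285 and 963 after LPS. Untreated sample 1 stood far above the rest, and again only untreated sample 2 lay among the LPS samples. The log2 fold change was -1.22 (SE 0.72).

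Gm28438, the mt-Nd3 copy (chr1:24651856-24652200, 345 bases), had the lowest level of the chromosome 1 copies and a small difference between groups. It stood at 1134, 233 and 883 untreated and at 765, 203 and 1153 after LPS. The highest sample was an LPS sample, and the log2 fold change was -0.13 (SE 0.87). Its sign was positive in 6 of 18 alternative settings, among them voom (0.49), equal summed values per sample (0.50) and the fit without LPS sample 2 (0.61), so no direction is given for it.

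Gm11410, the mt-Cytb copy on the plus strand (chr4:79922226-79923368, 1143 bases, 81 mismatches), had 1932, 1066 and 1280 untreated and 1233, 406 and 1745 after LPS. Only LPS sample 2 lay below the whole untreated group. The log2 fold change was -0.53 (SE 0.60), and it was positive, at 0.10 or less, in 3 of the 18 settings. The other 8 copies were lower after LPS in all 18.

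**Figure D1:**
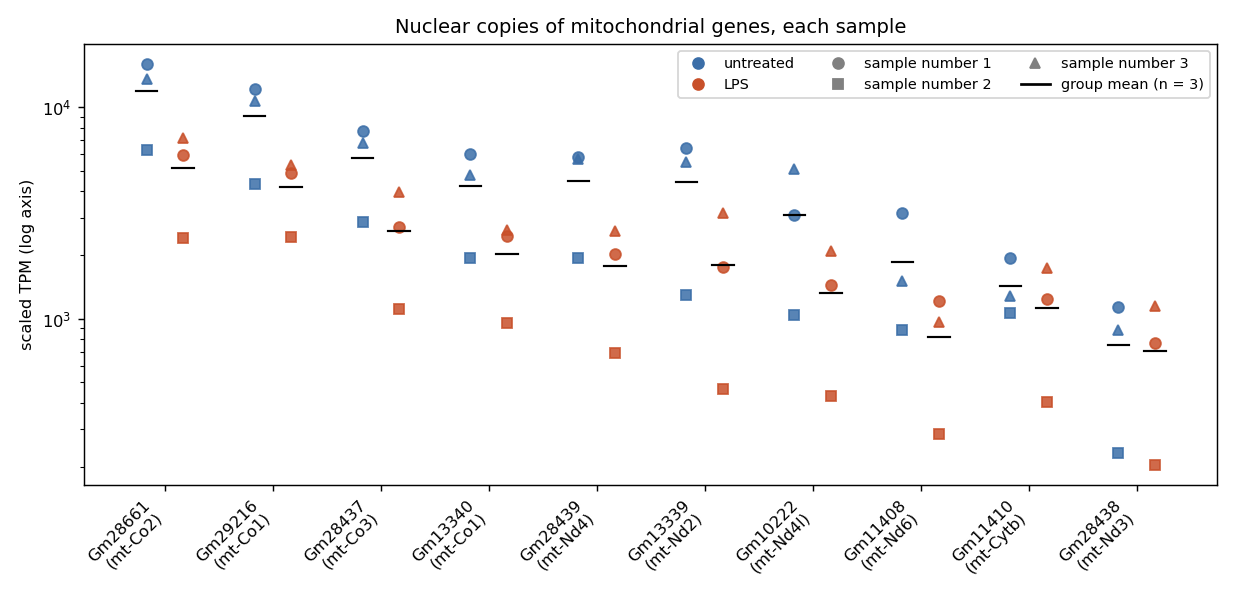
Level of each of the 10 copies, in scaled TPM on a log axis, with the mitochondrial gene copied in brackets. Points are single samples, coloured by group and shaped by sample number, and black lines are group means (n = 3). For each copy the square, sample 2, is the lowest point of both groups.

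The copies at the top and at the bottom of the order were nearly the same in every sample, while those between changed places. Gm13340, for example, ranked from 4 to 7. Gm28661, Gm29216 and Gm28437 were the first 3 in all 6 samples, and Gm28438 was the last in 5 of 6. Neighbours were compared by the log2 ratio of their levels within a sample. Gm28661 exceeded Gm29216 by 0.33 ± 0.19 (SD, n = 6), Gm29216 exceeded Gm28437 by 0.72 ± 0.24 and Gm28437 exceeded Gm13340 by 0.40 ± 0.18. Below these, Gm13340 and Gm28439 differed by 0.09 ± 0.25, Gm28439 and Gm13339 by 0.16 ± 0.35, Gm10222 and Gm11408 by 0.66 ± 0.67, and Gm11408 and Gm11410 by -0.12 ± 0.56. Those 4 pairs of neighbours did not differ beyond the spread over samples. Gm13339 exceeded Gm10222 by 0.41 ± 0.36 and Gm11410 exceeded Gm28438 by 0.96 ± 0.62, each in 6 of 6 samples.

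Levels within the chromosome 1 insertion were far from even, although the copies adjoin each other there. The untreated means of its 6 copies ran from 750 scaled TPM for Gm28438 to 11975 for Gm28661. A seventh row lies between Gm28661 and Gm28437, the mt-Atp6 copy Gm10925 (chr1:24653055-24653732, 678 bases, identical to mtDNA), a copy of the gene for a subunit of ATP synthase. By its mean it was the highest of all copies, and it was the highest in 4 of the 6 samples, at 18842, 7113 and 16152 untreated and 5763, 2120 and 8012 after LPS.

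**Figure D2:**
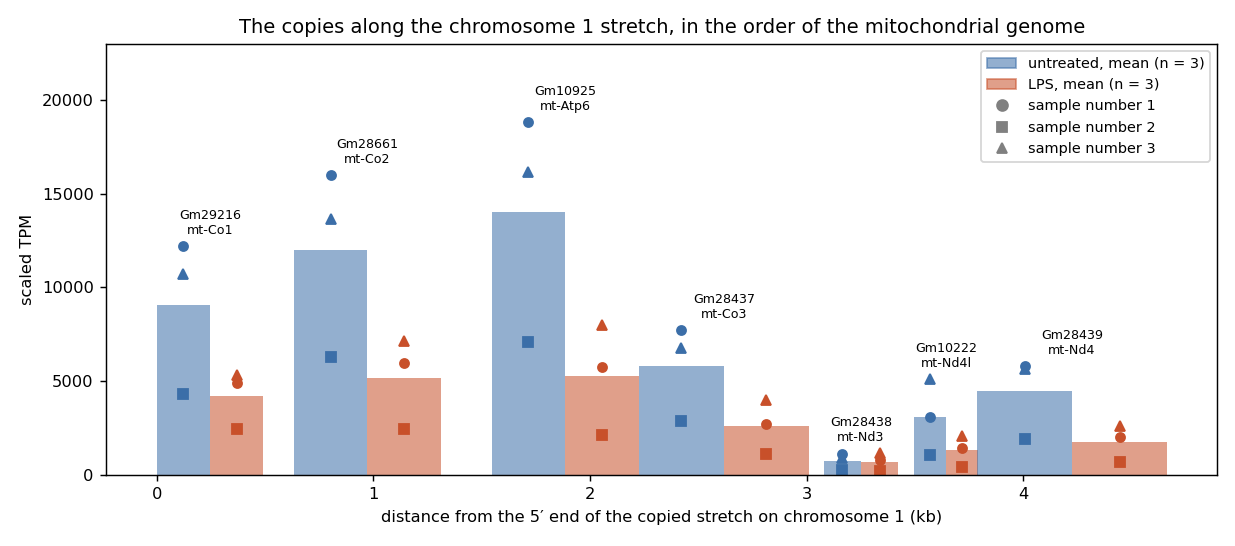
The 7 copies of the chromosome 1 insertion, drawn to scale by distance in kb from its 5′ end, which is also the order of the genes in mtDNA. The width of each copy is shared by a bar for the untreated mean and a bar for the LPS mean (scaled TPM, n = 3 each), and points are the samples. The mt-Nd3 copy, Gm28438, has the lowest mean of the 7 in both groups. After LPS its samples overlap those of its neighbour Gm10222 (means of 707 and 1321).

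Summed over the 10 copies, the level was 63518, 21847 and 55860 scaled TPM in untreated samples 1, 2 and 3 and 24454, 9410 and 30772 in LPS samples 1, 2 and 3. Again untreated sample 2 lay below LPS samples 1 and 3. As a share of all values in the table this was 3.31% to 9.25% untreated and 2.02% to 7.60% after LPS. The chromosome 1 copies made up 72.3% to 77.5% of the sum in every sample, those of chromosome 2 14.8% to 19.6% and those of chromosome 4 4.98% to 10.0%. The share of single copies ranged least for Gm28437 (11.2% to 13.1%), Gm13340 (8.54% to 10.2%) and Gm28661 (23.3% to 28.7%), relative to its size, followed by Gm28439 (7.31% to 10.1%) and Gm29216 (17.3% to 25.9%). It moved more for Gm13339 (4.96% to 10.2%), Gm10222 (4.61% to 9.16%), Gm11408 (2.69% to 4.99%) and Gm11410 (2.29% to 5.67%). Gm28438 made up 1.07% to 1.78% of the sum in untreated samples and 2.16% to 3.75% in LPS samples.

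As a description only, since these values also chose the copies, 0 of the 10 lay past the limits of the study in the fit by limma (p under 0.01 before adjustment and an absolute log2 fold change above 2), as 2.99% of the 23049 tested genes did. The count was 0 as well at an unadjusted p under 0.05 in the same fit, which has no replicate block, and with limma-voom at the limits of the study. Of all tested genes, 10.3% were higher and 6.66% lower at that p, and 7.5% passed with limma-voom. The median log2 fold change of the copies was -1.21, with a range of -1.38 to -0.13, beside 0.01 for all tested genes. That median rested partly on 1 library, since without LPS sample 2 it was -0.60. It was also -0.59 when each sample was scaled to the same sum and -1.71 when each was scaled to the same sum of protein-coding genes.

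Between samples of the same number, 28 of 30 differences were below 0. The log2 ratio of LPS to untreated ran from -1.87 to -0.57 over the 10 copies for the samples numbered 1 (median -1.35), from -1.63 to -0.20 for those numbered 2 (median -1.37) and from -1.29 to 0.45 for those numbered 3 (median -0.83). The 2 positive values were Gm28438 and Gm11410 in the samples numbered 3. Thus 8 of 10 copies were lower in all 3 comparisons, as were 13.9% of all tested genes. No label states that samples of one number share an animal or a day, and the numbers are used here only to set values side by side.

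**Figure D3:**
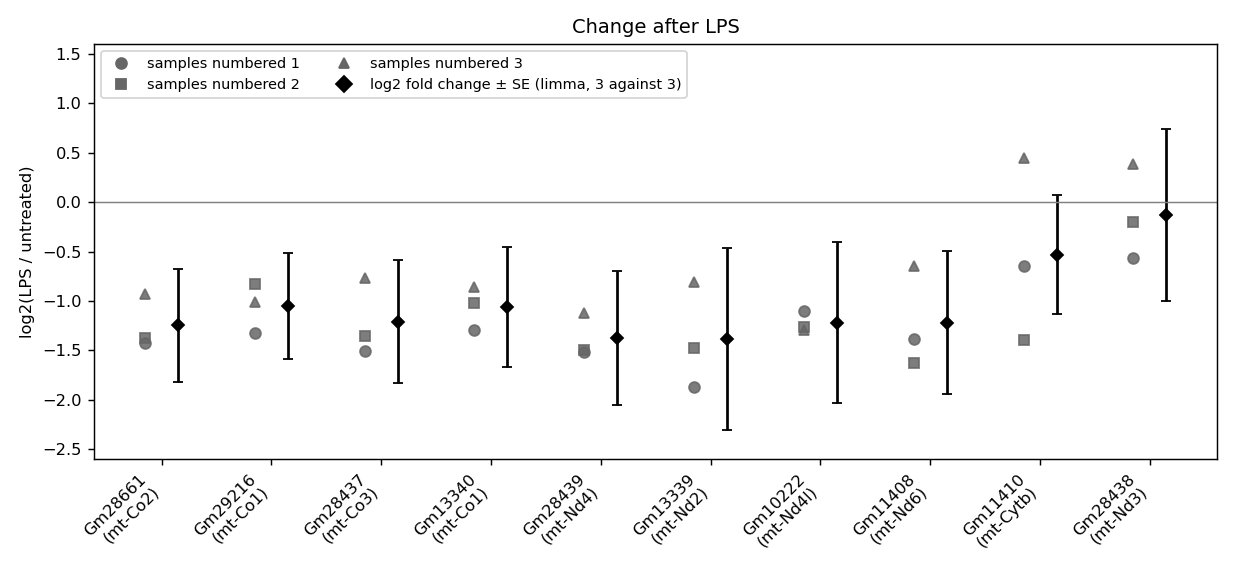
Change after LPS of each copy as log2(LPS / untreated). Grey points compare the 2 samples of one number, and black diamonds give the log2 fold change of 3 against 3 samples with its standard error (limma on log2 of scaled TPM + 1). Of the 30 grey points 2 lie above 0, both for samples numbered 3, and the error bars of Gm11410 and Gm28438 reach across 0. The bars are standard errors and not confidence intervals, so a bar that stays below 0 is not a test.

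The samples numbered 2 stood apart within both groups. All 10 copies were lowest in sample 2 of both groups, as were 20.6% of the 11073 genes with a value above 0 in every sample. On the log2 scale, untreated sample 2 lay below the mean of untreated samples 1 and 3 and LPS sample 2 below that of LPS samples 1 and 3, with median differences of -1.44 and -1.80. The groups overlapped for all 10 copies, while 9.75% of tested genes had LPS values entirely below the untreated ones and 13.1% entirely above. With the samples numbered 2 left out, a choice made after seeing the data, the groups of 8 of 10 copies, all but Gm28438 and Gm11410, did not overlap and were lower after LPS, and the median log2 fold change was -1.15. The same holds for 18.8% of all tested genes, and nothing is read from this, because the copies were chosen by the contrast and the samples left out are those in which they were lowest.

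Marker genes of cell types moved with the sample number too. The 10 neutrophil markers summed to 9886, 28412 and 9657 scaled TPM in untreated samples 1, 2 and 3 and to 18216, 54609 and 16030 in LPS samples 1, 2 and 3, and 8 of the 10 were highest in sample 2 of both groups. Lcn2, a neutrophil granule protein, stood at 77.0, 1284 and 94.7 untreated and at 879, 4887 and 1190 after LPS. The exceptions were Csf3r, highest in untreated sample 3 (251, 345 and 525), and Camp, lowest in untreated sample 2 (24.1, 1.16 and 9.18). The sums of B cell and erythroid markers were lowest in the samples numbered 2, as were 2 of 4 B cell and 4 of 5 erythroid markers taken singly in both groups.

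The 4 B cell markers in the table, of 5 listed, summed to 542, 142 and 406 untreated and to 236, 66.7 and 223 after LPS. Their leading gene, Cd79a of the B cell receptor, had 457, 27.4 and 187 untreated and 134, 36.6 and 125 after LPS. Cd79b of the same receptor had 61.3, 111 and 175 untreated, lowest in sample 1, and 61.4, 17.3 and 61.1 after LPS. Pax5, the factor that sets B cell identity, stayed between 0.608 and 2.02. The 5 erythroid markers, of 6 listed, summed to 356, 21.5 and 5629 untreated and to 572, 165 and 4651 after LPS. The samples numbered 3 carried most globin RNA, and the order of the erythroid sum was not that of the copies.

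Sums of the other lists were 799 to 1536 for 8 of 10 macrophage and monocyte markers, mostly Lyz2, 5.29 to 14.8 for 7 T and NK cell markers and 4.69 to 49.1 for 3 of 5 mast cell markers. They were 0.610 to 1.90 for 4 eosinophil markers, with Epx at 0 in all samples, and at most 0.745 for 3 of 4 mesothelial markers. The macrophage and monocyte sum was also highest in sample 2 of both groups, at 1068, 1536 and 1121 untreated and 995, 1111 and 799 after LPS. Taken singly, 2 of its 8 markers were highest and 2 lowest there. In bulk samples, fewer cells of a type and less RNA per cell cannot be told apart, and the part of any of these cells in the level of the copies was not tested.

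**Figure D4:**
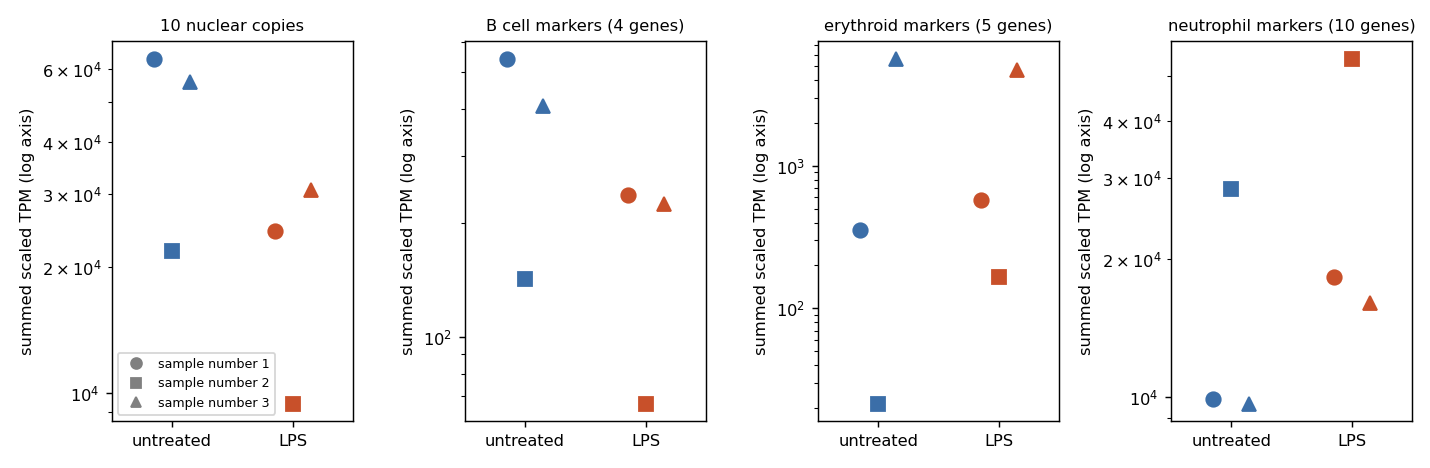
Summed scaled TPM, each panel on its own log axis, of the 10 copies and of marker genes of B cells, erythroid cells and neutrophils in each sample. Shapes give the sample number. The squares, samples numbered 2, are lowest in each group for the copies, the B cell markers and the erythroid markers and highest for the neutrophil markers.

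Levels of the copies varied together. Over the 45 pairs of copies, Pearson's r of log2 levels across the 6 samples was 0.756 to 0.996, with a median of 0.946, and for deviations from the group means the median was 0.959. These points share libraries, the group difference and in part the same reads, so the values are a description. Of 2737 other genes with a mean of at least 10 scaled TPM, those most like the summed level of the 10 copies were Trbc2 (r = 0.992), Rps18-ps3 (0.990), Gm10925 (0.989), Gm43213 (0.989) and Gm5864 (0.981). Trbc2, a constant segment of the T cell receptor beta chain, stood at 111, 25.8 and 105 untreated and at 28.6, 5.72 and 30.3 after LPS. Of the other 4, Gm10925 is the mt-Atp6 copy and the rest are processed pseudogenes that are not among the copies of mtDNA found here.

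Beside the 10 copies, the annotation holds 19 further pseudogenes with at least 80% identity to mtDNA over at least 50% of their length, of which 16 have a row. All 13 protein genes of mtDNA thus have at least 1 copy in the table. Of the 26 rows, 12 had a mean of at least 100 scaled TPM, 6 lay between 0 and 100 and 8 were at 0 in all samples. For each of the 8 mitochondrial genes with more than 1 copy in the table, the closest to mtDNA of those copies had the highest mean. For mt-Nd5 a closer copy, Gm4076 (95.178%), has no row. For mt-Co2 the means were 8574 for Gm28661 at 100% identity and 9.42 for Gm13341 at 95.906%, and Gm12155 was at 0. For mt-Co1 they were 6646 for Gm29216, 3127 for Gm13340 and 30.4 for Gm11512, and Gm47610 and Gm42739 were at 0. The copies of mt-Nd1 (Gm48258, 83.601%) and mt-Atp8 (Gm28925, 81.437%) were at 0.

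**Figure D5:**
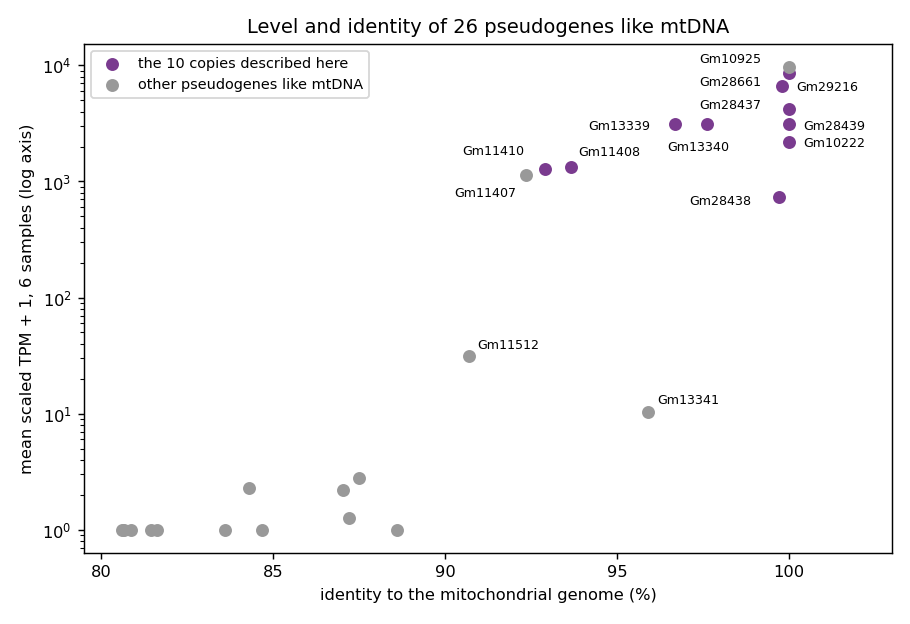
Mean scaled TPM over the 6 samples, plus 1 and on a log axis, against identity to the mitochondrial genome in percent, for the 26 copies in the table. Every copy with a mean of at least 100 has an identity above 92%, and Gm13341 lies low at 95.906%.

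These further copies were tested in the fit over all genes, but they are not independent of the 10. Gm10925, Gm11407 and Gm13341 lie in the same insertions, and 305 of the 642 words of Gm13341 occur in other copies. The list was also set with earlier results of these data known, so its p-values are a description. Of the 16, 8 were above 0 in some sample, and 0 of these 8 passed the limits of the study (limma). At an unadjusted p under 0.05 the count was 2, both lower, where 6.66% of all tested genes were lower at that limit and 10.3% higher, and with limma-voom 0 passed the limits. Gm13341, the mt-Co2 copy of chromosome 2, had 17.3, 15.5 and 11.3 untreated and 5.81, 1.86 and 4.82 after LPS. No LPS value reached the untreated range (log2 fold change -1.68, SE 0.43, limma adjusted p = 0.112).

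Gm11512, a copy of part of mt-Co1 (chr11:90429310-90429972, 90.673% identity), had 39.1, 29.8 and 69.2 untreated and 18.3, 10.2 and 15.7 after LPS. Its groups did not overlap either (log2 fold change -1.53, SE 0.42, limma adjusted p = 0.134). Unlike the 10 copies, Gm13341 was not lowest in sample 2 of the untreated group, and the ratio of Gm28661 to Gm13341 was 926, 405 and 1210 in untreated samples 1, 2 and 3 and 1024, 1301 and 1486 in LPS samples 1, 2 and 3.

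The 2 abundant further copies varied as the 10 did. Gm10925 had a log2 fold change of -1.49 (SE 0.64, limma adjusted p = 0.314), and its ratio to Gm28661 was 1.13 to 1.18 in untreated samples and 0.876 to 1.12 after LPS. Gm11407, a copy of part of mt-Nd5 in the chromosome 4 insertion (92.344% identity), had 2768, 611 and 1394 untreated and 905, 257 and 818 after LPS (log2 fold change -1.21, SE 0.73, limma adjusted p = 0.467). Both overlapped between groups through untreated sample 2. The remaining 4, Gm48122, Gm43841, Gm47099 and Gm52977, never exceeded 5.82 scaled TPM. Of the 8, 4 had a negative and 4 a positive log2 fold change, with a median of -0.54 that was 0.14 with limma-voom and -1.46 to -0.11 without 1 sample.

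The nuclear genes that complete the respiratory chain and ATP synthase were compared with LPS in the same fit. Of 95 symbols listed, which include older names, 53 had a row and all 53 were tested. Of these, 39 had a positive and 14 a negative log2 fold change, with a median of 0.71 beside 0.01 for all genes. Past the limits of the study were 3 higher and 1 lower, where 1.69% and 1.31% of all genes were called. At an adjusted p under 0.05, which 1.84% of all genes passed, only the lower one did. With an unadjusted p under 0.05 (limma) there were 11 higher and 9 lower, where 10.3% and 6.66% of all genes were higher and lower. Groups did not overlap for 13 higher and 9 lower genes, as for 13.1% and 9.75% of all genes. By complex, the medians were 0.83 for complex I (22 genes), 0.46 for complex II (4), 0.72 for complex III (8), 0.76 for complex IV (7) and 0.49 for ATP synthase (12).

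Ndufs5, an accessory subunit of complex I, was the gene that fell at the adjusted limit. It stood at 36.2, 33.0 and 34.2 untreated and at 7.65, 4.03 and 6.72 after LPS, with no overlap (log2 fold change -2.35, SE 0.32, limma adjusted p = 0.0319). Highest among those called was Uqcrq, a small subunit of complex III, at 0.757, 1.31 and 9.21 untreated and 26.6, 20.5 and 28.0 after LPS (2.90, SE 0.70, limma adjusted p = 0.103). Every LPS value of it was above every untreated one.

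Sdhb, the iron-sulfur subunit of complex II, had 1.98, 1.34 and 4.87 untreated and 12.8, 15.4 and 12.9 after LPS (2.09, SE 0.42, limma adjusted p = 0.0698). Ndufa12, an accessory subunit of complex I, had 2.78, 2.44 and 0.930 untreated and 15.8, 5.76 and 14.4 after LPS (2.04, SE 0.49, limma adjusted p = 0.103). Neither overlapped between groups. The next lowest fold changes after Ndufs5 were those of Cox7a2, a complex IV subunit (-1.81, SE 0.34), and Atp5h, a stalk subunit of ATP synthase (-1.72, SE 0.39), which did not pass the limits. The count of called genes in this list was 1 without LPS sample 1 or without LPS sample 3, and 7 without untreated sample 3 and without both samples numbered 2.

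For the nuclear genes that transcribe mtDNA and process its RNA, 25 of 31 listed had a row. Of the 25, 21 had a positive and 4 a negative log2 fold change, with a median of 0.40, and 0 passed the limits (limma), which 2.99% of all genes did. At an unadjusted p under 0.05 there were 8 higher and 1 lower, where 10.3% and 6.66% of all genes were higher and lower. With limma-voom 7 passed, as did 7.5% of all genes. Tfam, the factor that packages mtDNA and starts its transcription, stood at 0.238, 0.355 and 0.355 untreated and at 6.87, 1.80 and 5.39 after LPS (1.98, SE 0.46, limma adjusted p = 0.0948). It was picked for mention after seeing its values. The lowest fold changes were those of Mterf3, a factor that binds mtDNA and represses its transcription (-0.96, SE 0.35), and Fastkd3, of a family that acts on mitochondrial RNA (-0.35, SE 0.50), and neither passed.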

How the data were processed

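RNA of 3 untreated and 3 LPS-treated samples was sequenced with a stranded mRNA kit, and groups were taken from the labels. The authors mapped reads with STAR (GRCm39), with mm10 and fastp also named in their processing notes, ran Kallisto for transcript levels and used edgeR for normalization. The deposited values, named normalized counts by the authors, have the form of TPM, a mean across transcripts for each gene, over a constant that differs by sample. Versions, annotation, strand setting and the word length of Kallisto are not given in the sources used here. TPM keeps no depth, so precision rests on the spread of 3 samples.

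Genes above 0 in a sample (23049) were fitted with limma 3.58.1 in R 4.3.3 (eBayes with a trend, two-sided) on log2(value + 1), which understates fold changes of low genes, with Benjamini-Hochberg adjustment over all of them. The code was tested on simulated data. The members, lists and alternatives were chosen with earlier results of these data known. Named are the 10 copies, up to 10 further copies with the highest means, up to 4 called genes and 2 of the other direction per nuclear list, the 5 genes most like the copies, and Cgas. Marker genes come from fixed lists of cell types, and those named were picked after seeing their values, as was any other named gene.

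Positions and types come from GENCODE M39, with 35599 rows matched by name, 983 by identifier and 1 (Gm10925) by its newer symbol Atp6-ps. RefSeq alone gave the type of 1774, and 382 were not matched. Pseudogenes were aligned to chromosome M with blastn 2.17.0 (e-value limit 1e-5). In each printed window of 100 bases, the number of differences is near the average for 1 of the copies shown. Gm11512, at 90.673% identity, has 13 in its window, above its average. Alternatives were pseudocounts of 0.1 and 5, filters, scalings, eBayes without a trend, voom, the replicate number as a block, leaving out each sample and, added after seeing the data, leaving out both samples numbered 2.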

Additional observations from a re-analysis of the deposited data

How the results depend on the processing

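The median log2 fold change of the 10 copies stayed below 0 in every alternative, between -1.71 and -0.59, and 0 copies were called in any. Without 1 sample it lay between -1.65 and -0.60. Centring moved the median of all genes to -0.19, voom to 0.67, a pseudocount of 0.1 to 0.15 and a mean of at least 1 to 0.13. Relative to the median of all genes, that of the copies was -1.22, and -1.23, -1.26, -1.36 and -1.34 in these 4 settings, but -0.69 with quantile normalization and with equal sums, -1.67 with equal protein-coding sums and without untreated sample 2, and -0.62 without LPS sample 2. The genes called higher and lower, 389 and 301, became 856 and 493 with a pseudocount of 0.1, 129 and 168 with one of 5, 796 and 146 with equal sums, 221 and 516 with equal protein-coding sums and 1552 and 177 with voom, and 206 were higher at an adjusted p under 0.05. Without 1 sample they were 260 to 463 and 263 to 394.

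For the respiratory chain list, the median of 0.71 became 0.37 with a pseudocount of 5, 0.51 with centring, 1.25 with equal sums, 0.29 with equal protein-coding sums and 1.41 with voom. Its 4 calls became 0 with a pseudocount of 5, 11 with voom, 1 at an adjusted p under 0.05 and 7 without both samples numbered 2, and ranged from 1 to 7 without 1 sample. For mitochondrial transcription and RNA processing, the median of 0.40 became 0.97 with a pseudocount of 0.1, 0.85 with equal sums and 1.16 with voom. Its 0 calls became 6, 2 and 7 in these, 2 without both samples numbered 2, and 0 to 2 without 1 sample. For the further copies, the median of -0.54 became -1.21 at a mean of at least 1, -0.07 with equal sums and -1.51 at 90% identity. It was 0.14 with voom, a change of sign, and 0.00 over 16 rows with the 8 rows at 0 kept. Without 1 sample it ranged from -1.46 to -0.11, and 1 copy was called with equal protein-coding sums. The cause of these shifts was not tested.

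A replicate block by sample number gave 387 higher and 303 lower calls and called 0 copies. The limit of 2 was enough to give that 0 whatever the p-values, since the log2 fold changes of the copies ran from -1.38 to -0.13. The standard errors of the copies were 0.54 to 0.92 without the block and 0.16 to 0.40 with it. Copies at an unadjusted p under 0.05 were counted only without the block. That count of 0 does not carry over to the fit with the block, where the standard errors were smaller. For Gm28661, with a log2 fold change of -1.24, the standard error was 0.57 without the block and 0.16 with it. The limma adjusted p of the copies under the block ran from 0.0925 (Gm28439) to 0.809 (Gm28438). Deviations from the group means over 9403 genes correlated at 0.102, 0.220 and 0.093 between samples of one number, and each sample correlated best with its own number, a hint from the data and not from the design. Under the block, the limma adjusted p was 0.101 for Ndufs5 and 0.0565 for Gm28911, which lost their calls at 0.05, and 0.0456 for Fth-ps3, which gained one. The unknown depth limits the precision of low values such as those of Gm48122 or Tfam.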

Other observations

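Pseudogenes that are not copies of mtDNA were compared after their values were seen. Over all 3329 tested, 1886 had a negative and 1443 a positive log2 fold change, with a median of -0.09, and 153 passed the limits of the study as lower and 23 as higher (limma). Of the 199 with a mean of at least 100 scaled TPM, 162 had a negative log2 fold change after LPS, with a median of -1.47, and 52 passed the limits of the study as lower and 1 as higher (limma). Of 262 protein-coding genes with a mean of at least 100, 188 had a positive log2 fold change, with a median of 0.73, and 23 passed as higher and 2 as lower. The median of the 10 copies of mitochondrial genes, -1.21, is given beside these as a value, and no difference between the sets was tested. Values are means across transcripts, so a mean of at least 100 is not the same limit for genes with 1 and with several transcripts.

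The most abundant row, the ferritin heavy chain pseudogene Fth-ps3, stood at 185940, 214780 and 153420 scaled TPM in untreated samples 1, 2 and 3 and at 56524, 68072 and 46481 in LPS samples 1, 2 and 3. Its groups did not overlap, and unlike the copies of mitochondrial genes it was highest in sample 2 of both groups (log2 fold change -1.70, limma adjusted p = 0.0577). Gm28911, a processed pseudogene on chromosome 1, had 35787, 10152 and 19155 untreated and 1155, 495 and 1391 after LPS, and it was lowest in sample 2 of both groups as the copies were. Its groups did not overlap (log2 fold change -4.36, limma adjusted p = 0.0348).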
